A study of Mus musculus with 2 samples.

Results

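The Mir130 and Mir301 family was taken as the 4 microRNA genes named Mir130a, Mir130b, Mir301 and Mir301b in the GENCODE M21 annotation, out of 2202 microRNA genes counted in the cortex of 2 mice. Mir301 is the gene of miR-301a. The genes were chosen by name and not by their counts, with earlier results of these data known. The study is a microRNA-seq survey of left cerebral cortex from female mice aged 36 days, of the strain B6CASTF1/J, a hybrid of C57BL/6J and CAST/EiJ. Both mice form 1 group, for which no treatment or mutation is named, and each gave 1 library, so no comparison between conditions is possible. A difference between mouse 1 and mouse 2 therefore cannot be told apart from a difference between library preparations. The labels give both libraries 1 donor code but name them separate biological replicates, so they are taken here as 2 mice.

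A microRNA is cut from a hairpin precursor and guides an Argonaute protein to messenger RNAs that pair with its seed, here bases 2 to 8 counted from the 5′ end. The miR-130 and miR-301 microRNAs carry the same seed in the arm on the 3′ side of the hairpin (3p), so they are predicted to share many targets. In human endothelial cells miR-130a is known to repress the homeobox genes GAX and HOXA5, and in adipocyte precursors the family represses the adipogenic receptor gene PPARG. In human cancer cells, miR-301a is known to repress the NF-κB repressing factor NKRF, and miR-130b the stress gene TP53INP1.

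The RefSeq table (GRCm38.p6) listed the mature 3p arms below for 3 of the family genes, shown because the shared seed defines the group. Capitals mark the seed.
miR-130a-3p (chr2:84741116-84741137, minus strand): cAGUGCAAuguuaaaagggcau
miR-130b-3p (chr16:17124071-17124092, minus strand): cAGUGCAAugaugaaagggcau
miR-301a-3p (chr11:87113054-87113076, plus strand): cAGUGCAAuaguauugucaaagc

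Compared base by base without gaps, miR-130a-3p and miR-130b-3p were identical at 20 of 22 bases. The differences, counted from the 5′ end with the base of miR-130a-3p first, were U11A and A13G. Against miR-301a-3p, miR-130a-3p was identical at 12 of 22 bases, and the shared run covered the first 9 bases. The Mir130 and Mir301 arms thus have the seed and its flanks in common and differ in the 3′ part. miR-301b-3p belongs to the same family by name.

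The 5p arms are shown because they pair with the seed in the hairpin. Capitals mark the exact reverse complement of the seed, UUGCACU, where it occurs.
miR-130a-5p (chr2:84741155-84741176, minus strand): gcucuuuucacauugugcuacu
miR-130b-5p (chr16:17124109-17124130, minus strand): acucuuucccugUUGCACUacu
miR-301a-5p (chr11:87113017-87113038, plus strand): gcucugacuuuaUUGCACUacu
miR-301b-5p (chr16:17124456-17124477, minus strand): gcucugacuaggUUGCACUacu

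The reverse complement stood at bases 13 to 19 in 3 of the 4 arms, and miR-130a-5p lacked an exact copy. The 5p arms have other seeds, CUCUUUU for Mir130a, CUCUUUC for Mir130b, and CUCUGAC for both Mir301 and Mir301b. The deposited counts are per hairpin, so reads of the 5p and 3p arms cannot be told apart and the values below cover both.

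The genes lie at 3 loci on the mm10 assembly. Mir130a (ENSMUSG00000065484.1, chromosome 2, 84741115 to 84741178, minus strand) lies in no annotated host gene on its strand. Mir301 (ENSMUSG00000065589.1, chromosome 11, 87113004 to 87113089, plus strand) lies in an intron of Ska2, which encodes a subunit of the spindle and kinetochore associated complex. Mir130b (ENSMUSG00000065572.1, chromosome 16, 17124061 to 17124142, minus strand) and Mir301b (ENSMUSG00000076288.1, chromosome 16, 17124400 to 17124496, minus strand) lie 257 bases apart. Both lie in intronic sequence of 2610318N02Rik. No other counted microRNA gene lay within 10 kb of a family gene on the same strand. The longest run of bases that a family hairpin shared with any other annotated microRNA hairpin was 17 for Mir130a, with Mir6389, and 16 for each of the others. Reads with several map positions were given to no gene, and the listed family arms of 22 to 23 bases are longer than these shared runs, but the genome outside the annotated hairpins was not searched here.

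The libraries held 1930234 sense-strand counts in mouse 1 and 1863876 in mouse 2. Levels are given in CPM, a gene's counts per 1000000 sense counts of its library, with means ± SD of the 2 mice (n = 2). A mature microRNA yields 1 read whatever the length of its hairpin, so CPM was not divided by length. Among the 2202 genes, 304 (13.8%) reached 10 CPM in both mice and were called detected. Intervals given for a single library are 95% Clopper-Pearson intervals, and they and the floor of 3 counts cover counting error only, since reads without stated molecular identifiers may be PCR copies. Of 13 neuron marker genes 9 were detected, and the list summed to 63684 CPM (mouse 1) and 103951 CPM (mouse 2), while Mir124a-1, Mir124a-2 and Mir124a-3, which share sequence among themselves, had at most 4 counts each in either mouse.

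Mir130a supplied most of the family's counts in both mice. It had 2902 counts (1503 CPM) in mouse 1 and 2533 counts (1359 CPM) in mouse 2, a mean of 1431 ± 102.1 CPM. It stood at rank 81 of all genes in mouse 1 and rank 91 in mouse 2, and 96.0% of all genes had a lower mean level. Of the 2202 genes, however, 1480 had no count in either mouse. The counting intervals of Mir130a ran from 1449 to 1559 CPM in mouse 1 and from 1307 to 1413 CPM in mouse 2, so they did not overlap, although the levels lay close together.

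Mir130b, the gene most like Mir130a in sequence, was read at a much lower level. Mir130b had 225 counts (116.6 CPM) in mouse 1 and 196 counts (105.2 CPM) in mouse 2. Its mean was 110.9 ± 8.07 CPM, at rank 205 by mean. Mir130a had 12.9 times the counts of Mir130b in each mouse, at 12.90 in mouse 1 and 12.92 in mouse 2. The 2 genes lie on different chromosomes, and a ratio over 2 libraries describes these libraries alone.

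Mir301 was the family gene that differed most between the animals. It had 741 counts (384 CPM) in mouse 1 and 73 counts (39.2 CPM) in mouse 2, a mean of 211.5 ± 243.8 CPM, so that the SD exceeded the mean. Mouse 1 was high and mouse 2 low, with counting intervals of 357 to 413 CPM in mouse 1 and 30.7 to 49.2 CPM in mouse 2. Mir301 stood at rank 146 in mouse 1 and rank 253 in mouse 2.

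Mir301b was close to the floor. It had 13 counts (6.73 CPM) in mouse 1 and 6 counts (3.22 CPM) in mouse 2, a mean of 4.98 ± 2.49 CPM, and was the family gene that did not reach 10 CPM in both mice. A count of 0 would allow up to 1.55 CPM in the library of mouse 1 and 1.61 CPM in that of mouse 2, so both values lay above that floor. Its intervals of 3.59 to 11.5 CPM in mouse 1 and 1.18 to 7.01 CPM in mouse 2 overlapped.

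**Figure D1:**
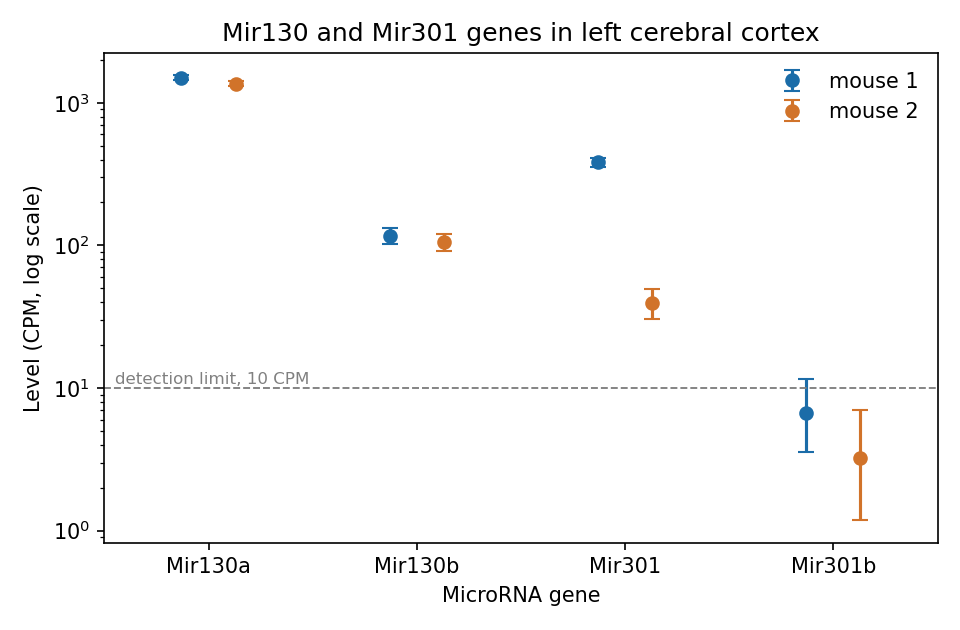
Level of each family gene in CPM on a log axis, in mouse 1 (blue) and mouse 2 (orange), with 95% Clopper-Pearson intervals for counting error; the dashed line is the detection limit of 10 CPM. Mir130a lies at 1503 CPM (mouse 1) and 1359 CPM (mouse 2), Mir130b at 116.6 CPM (mouse 1) and 105.2 CPM (mouse 2), and Mir301 at 384 CPM (mouse 1) and 39.2 CPM (mouse 2).

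Mir130a was the highest and Mir301b the lowest of the 4 genes in each mouse. The lower of the Mir130a values, 1359 CPM, lay above the values of the other genes in both mice, and the higher of the Mir301b values, 6.73 CPM, lay below them. The mean gap between Mir301 and Mir301b was smaller than the SD of Mir301. The place of Mir301 and Mir130b was not fixed. Mir301 had 3.29 times the counts of Mir130b in mouse 1 and 0.372 times in mouse 2, so their order turned round between the animals. Divided by hairpin length the order within each mouse was the same, at 2349, 446, 142 and 6.94 CPM per 100 bases for Mir130a, Mir301, Mir130b and Mir301b in mouse 1, and 2123, 45.5, 128 and 3.32 in mouse 2.

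The chromosome 16 neighbours differed in level although they lie on the same strand in intronic sequence of the same host gene. Mir130b had 17.3 times the counts of Mir301b in mouse 1 and 32.7 times in mouse 2. Mir301b made up 5.46% of the 238 counts of the pair in mouse 1 (interval 2.94% to 9.16%) and 2.97% of 202 counts in mouse 2 (1.10% to 6.35%). These intervals overlapped, and no difference in the make-up of the pair was detectable at this depth.

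**Figure D2:**
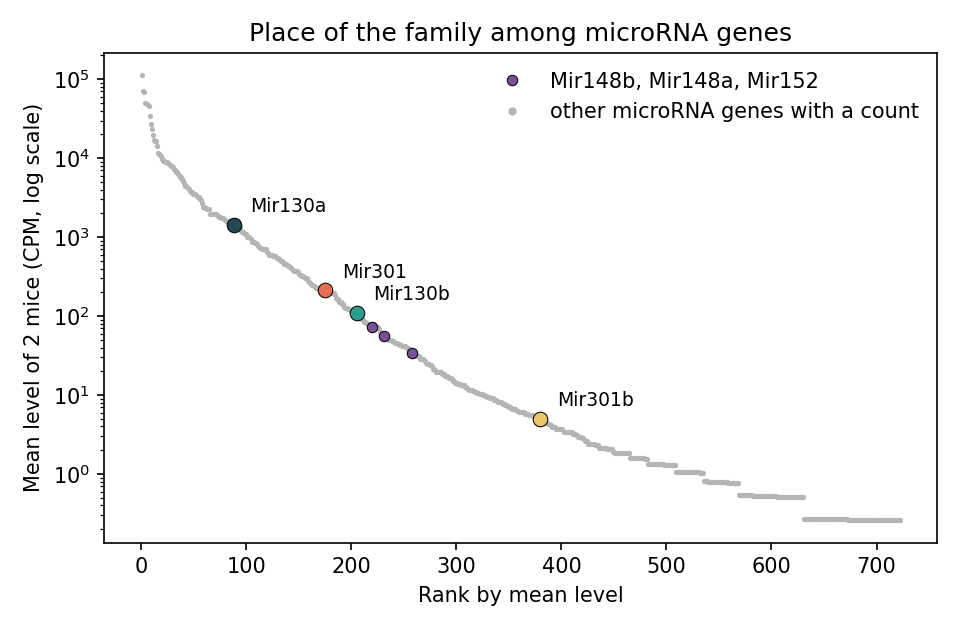
Mean CPM of the 2 mice on a log axis against rank for every microRNA gene with a count, with the family genes and the Mir148 and Mir152 genes marked. Mir130a stands at rank 88, Mir301 at 175, Mir130b at 205 and Mir301b at 380.

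In all, 3 of the 4 family genes were detected, against 13.8% of all genes, and 2 of them, Mir130a and Mir130b, also reached 100 CPM in both mice, against 8.95% of all genes. Together the 4 genes held 3881 counts in mouse 1 and 2808 counts in mouse 2. This was 0.201% of sense counts in mouse 1 (interval 0.195% to 0.207%) and 0.151% in mouse 2 (0.145% to 0.156%), with a mean of 0.176% ± 0.0356. Without Mir301 the family share was 0.163% in mouse 1 and 0.147% in mouse 2, so most of the difference in the family total lay in that gene.

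The make-up of the family counts differed accordingly. Mir130a held 74.8% of the family counts in mouse 1 and 90.2% in mouse 2. Mir301 held 19.1% in mouse 1 (interval 17.9% to 20.4%) and 2.60% in mouse 2 (2.04% to 3.26%). Mir130b held 5.80% in mouse 1 and 6.98% in mouse 2, and Mir301b held 0.335% in mouse 1 and 0.214% in mouse 2. Shares within a total depend on each other, so the higher share of Mir130a in mouse 2 goes with the lower share of Mir301 and was not a higher level.

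**Figure D3:**
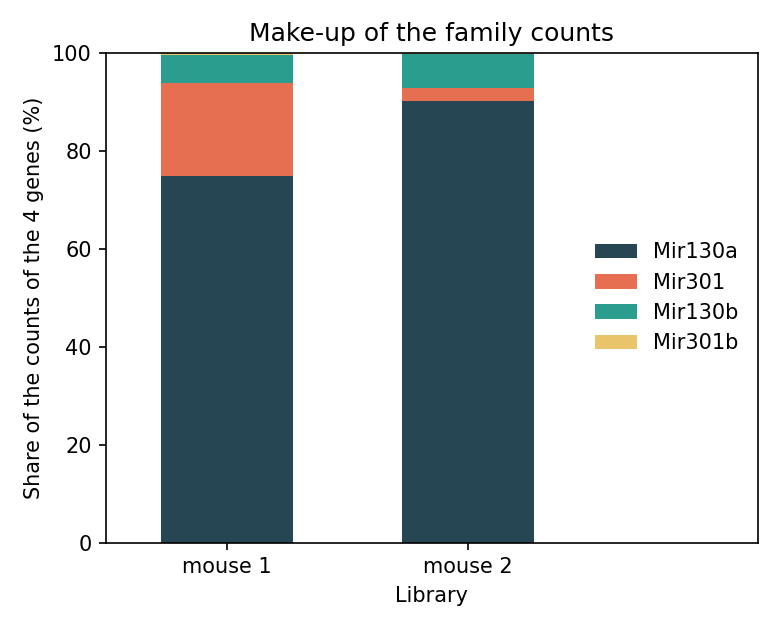
Share of the family's counts from each gene, in percent, for mouse 1 (left) and mouse 2 (right). Mir130a holds 74.8% in mouse 1 and 90.2% in mouse 2, and the band of Mir301 is 19.1% in mouse 1 and 2.60% in mouse 2; Mir301b is too thin to see.

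Other annotated genes with the same seed were not seen. RefSeq lists 7 genes with AGUGCAA at bases 2 to 8 of a mature arm, and beside Mir130a, Mir130b and Mir301 these were Mir130c, Mir721, Mir6341 and Mir6389. Their mature sequences are shown to let the shared start be compared, with the seed in capitals.
miR-130c (chr9:53400808-53400829, minus strand): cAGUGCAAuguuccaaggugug
miR-721 (chr5:136375777-136375797, minus strand): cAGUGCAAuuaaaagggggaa
miR-6341 (chr1:12426016-12426038, plus strand): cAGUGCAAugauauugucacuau
miR-6389 (chr7:57581070-57581090, plus strand): cAGUGCAAuguuaaacuuugc

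Each of these 4 genes had 0 counts in both mice, which allows each a level of up to 1.55 CPM (mouse 1) and 1.61 CPM (mouse 2). Of them, miR-6389 shared the first 15 bases of miR-130a-3p, and the hairpins of Mir130a and Mir6389 shared a run of 17 bases. A read that lies wholly within a shared run could not be given to either gene alone. Mir721 lies in an intron of Cux1. Over the 58 seeds carried by 3 or more genes in the RefSeq table, the summed mean level of the genes with this seed ranked 19, where both arms of a gene count under each of its seeds. That sum does not include Mir301b. Reads with several map positions were given to no gene, which can lower the sums of seeds whose genes share sequence. Mir124a-1, Mir124a-2 and Mir124a-3, which share sequence among themselves, had mean levels of 1.05, 1.33 and 1.32 CPM. Rank 19 may therefore be higher than it would be with those reads.

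The Mir148a, Mir148b and Mir152 genes, known for repressing DNA methyltransferase messages, carry the first 7 bases of the family arms moved by 1 position, marked here in capitals at bases 2 to 8.
miR-148a-3p (chr6:51269829-51269850, minus strand): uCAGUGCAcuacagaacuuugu
miR-148b-3p (chr15:103285185-103285206, plus strand): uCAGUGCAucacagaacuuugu
miR-152-3p (chr11:96850439-96850459, plus strand): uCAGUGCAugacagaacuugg

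These 3 genes had 299 counts in all (154.9 CPM) in mouse 1 and 322 counts (172.8 CPM) in mouse 2. The Mir130 and Mir301 family had 12.98 times that level in mouse 1 (2010.6 CPM) and 8.72 times in mouse 2 (1507 CPM). All 3 genes were detected, with mean levels of 73.5 ± 14.5 CPM for Mir148b, 56.0 ± 10.9 CPM for Mir148a and 34.4 ± 9.05 CPM for Mir152. Mir130a exceeded each of them in both mice, and Mir301b was below each of them in both mice.

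The difference between the mice was set against all 324 genes with a mean of at least 10 CPM. Each pair of counts was compared by a two-sided exact binomial test against TMM library sizes with Benjamini-Hochberg adjustment over the 324 genes, and a gene was called at an adjusted p below 0.05 and at least 2-fold. This test compares 2 libraries for counting error and not a condition. It called 19.4% of the tested genes: 5.25% were higher in mouse 1, and 14.2% were higher in mouse 2. With the trend of log2 ratio on hairpin GC content removed the calls numbered 29 with mouse 1 higher and 38 with mouse 2 higher, against 17 with mouse 1 higher and 46 with mouse 2 higher without that step. Every log2 ratio puts mouse 1 over mouse 2 and has a 95% counting interval. Mir301b was not among the tested genes because its mean was below 10 CPM.

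Of the 3 tested family genes, 1 was called, Mir301, higher in mouse 1, beside 5.25% of all tested genes in that direction. Its log2 ratio was 3.34 (interval 2.99 to 3.71), or 10.1-fold, with an adjusted p of 4.12e-139 by the exact binomial test. By the size of the log2 ratio it ranked 2 of 324, and it was the highest ratio in the direction of mouse 1. Among the 105 tested genes between 100 and 1000 CPM it also ranked 2, and 20.95% of these genes were called. The median size of the log2 ratio over all tested genes was 0.53, and edgeR put the common biological coefficient of variation at 0.399.

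Mir130a and Mir130b stayed close between the animals. The log2 ratio of Mir130a was 0.19 (interval 0.12 to 0.27), or 1.14-fold, which passed the exact binomial test (adjusted p = 1.54e-06) but not 2-fold. At this adjusted threshold alone 74.7% of all tested genes passed, so a pass without the fold is near the background. The log2 ratio of Mir130b was 0.20 (interval −0.09 to 0.48), and it passed neither (adjusted p = 0.206, exact binomial test). By the size of the log2 ratio they ranked 262 and 261 of 324. The median log2 ratio of the 3 tested family genes was 0.20, beside 0.0038 over all 324 genes. Mir301b, with 13 counts in mouse 1 and 6 in mouse 2, had a log2 ratio of 1.11 with an interval of −0.38 to 2.80, so a difference was not detectable at this depth.

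**Figure D4:**
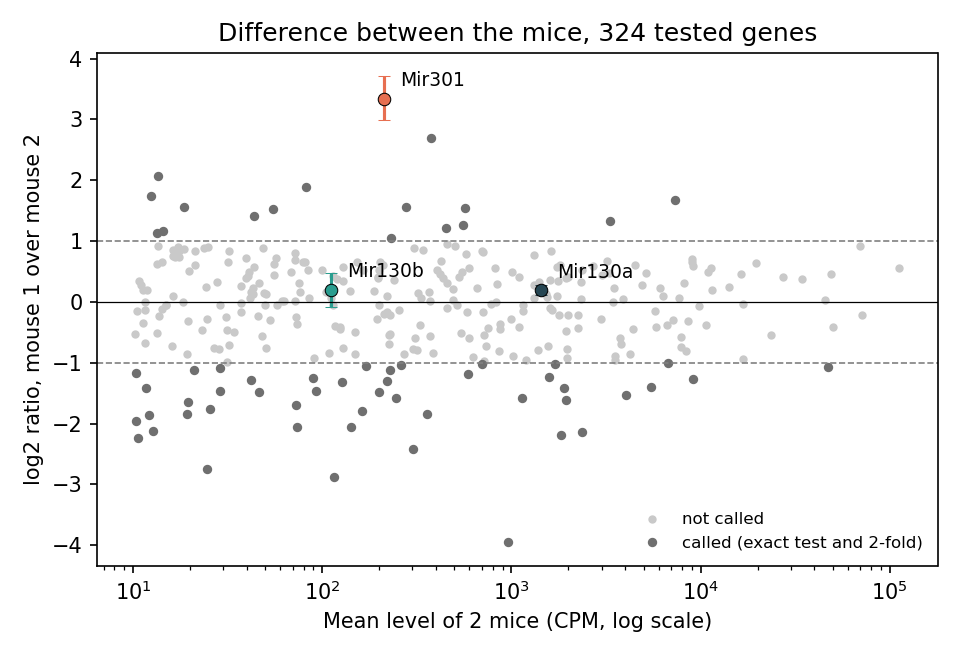
Log2 ratio of mouse 1 over mouse 2 against the mean CPM (log axis) for the 324 tested genes, with called genes in dark grey, the 2-fold limits dashed, and the family genes with 95% counting intervals. Mir301 lies at 3.34, while Mir130a at 0.19 and Mir130b at 0.20 lie inside the 2-fold limits.

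The 3 tested genes nearest to Mir301 in log2 ratio were Mir451a, Mir1930 and Mir200b, a likeness over 2 libraries only. Mir451a, which is made in red cell precursors, had 1252 counts in mouse 1 and 192 in mouse 2 (log2 ratio 2.70). Mir1930 had 42 counts in mouse 1 and 10 in mouse 2 (log2 ratio 2.07). Mir200b, known from epithelia and a member of the choroid plexus and epithelium list, had 249 counts in mouse 1 and 67 in mouse 2 (log2 ratio 1.89). Because Mir301 had the highest ratio toward mouse 1, these 3 were the next highest ratios, and their size follows from that choice. On the log2 scale Mir451a lay 0.64 below Mir301, Mir1930 1.27 below and Mir200b 1.45 below.

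Marker lists of other cells, chosen with earlier results of these data known, also differed in their sums between the libraries. The 3 erythroid genes Mir451a, Mir144 and Mir486 were all detected and summed to 742 CPM (mouse 1) and 152.9 CPM (mouse 2), with all 3 higher in mouse 1 and 2 of them called. The difference of Mir301 went the same way as this list, and the part of red cell RNA in it was not tested. The 11 endothelial and mural genes summed to 15950 CPM (mouse 1) and 31961 CPM (mouse 2), with 5 detected and Mir126b, Mir145b and Mir199a-1 at 0 counts in both mice. Of its 6 tested genes 1, Mir214, had a log2 ratio above 0 (0.02). The CPM of Mir214 was nonetheless slightly lower in mouse 1, at 62.7 against 63.8 in mouse 2. Mir10b and Mir143 were called higher in mouse 2. The 3 oligodendrocyte genes summed to 2756 CPM (mouse 1) and 5128 CPM (mouse 2), with 2 detected. The neuron list also had the lower sum in mouse 1, but its median log2 ratio over 9 tested genes was −0.03. Mir132, with 57702 counts in mouse 1 and 120890 in mouse 2, was its 1 called gene, and 3 of the 9, Mir138-2 (0.60), Mir9-3 (0.53) and Mir128-2 (0.22), had log2 ratios above 0. The CPM of each family gene was the higher one in mouse 1. The 6 microglia and leukocyte genes summed to 2093 CPM (mouse 1) and 2417 CPM (mouse 2), with 4 detected and Mir142b at 0 in both. Of its 4 tested genes 1 had the higher value in mouse 1, and Mir142 and Mir146 were called higher in mouse 2. The 12 choroid plexus and epithelium genes summed to 874.5 CPM (mouse 1) and 1246 CPM (mouse 2), with 6 detected and Mir449b at 0 in both. Of its 6 tested genes 3 had log2 ratios above 0. Of these, Mir204 (0.03) had the lower CPM in mouse 1, at 488.5 against 495.2 in mouse 2. On this list 1 gene was called each way, Mir200b higher in mouse 1 and Mir34c, with 178 counts in mouse 1 and 950 in mouse 2, higher in mouse 2. Their part in the values of the family was not tested. In these bulk libraries fewer cells of a type and less RNA per cell cannot be told apart.

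**Figure D5:**
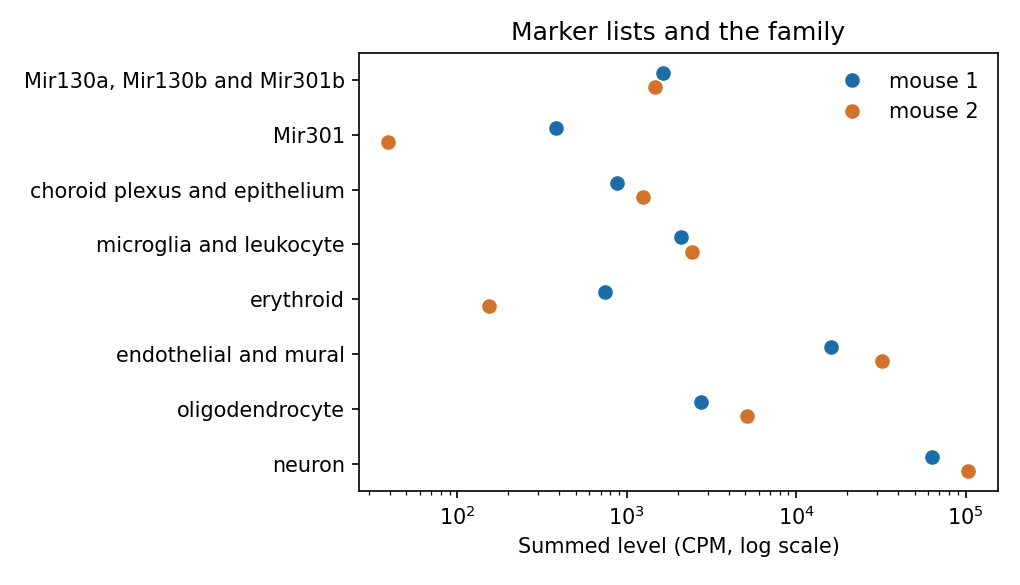
Summed CPM (log axis) of each marker list, of Mir301, and of Mir130a, Mir130b and Mir301b together, in mouse 1 (blue) and mouse 2 (orange). Mir301 and the erythroid list lie higher in mouse 1, at 384 and 742 CPM, than in mouse 2, at 39.2 and 152.9 CPM.

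The family counts did not depend on how strand was treated. Sense and unstranded counts were equal for each of the 4 genes in both mice, and the antisense column held 0 counts for each. Hairpin GC content ran from 45.3% for Mir130a over 48.8% for Mir301 and 53.6% for Mir301b to 56.1% for Mir130b. With a linear trend of log2 ratio on hairpin GC content removed over all tested genes, the log2 ratios were 3.49 for Mir301, 0.43 for Mir130a and 0.18 for Mir130b, and Mir301 was still the called gene of the family.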

How the data were processed

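Short RNA libraries from 2 mice were sequenced by the submitters. The deposited values are raw read counts per microRNA gene, on mm10 with GENCODE M21 per the labels and the README notes. For the aligner, the counter and adapter trimming, the tools are not given in the sources used here. All 3 count columns have no header and were read from their values as unstranded, sense and antisense, and sense was used. The 4 lines that name no gene were left out: in mouse 1, 32.1% of 7082096 reads were unmapped, 34.6% mapped to several places and 6.11% lay in no gene, and in mouse 2, of 6253481 reads, 27.3%, 37.2% and 5.63%.

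CPM used the sense totals. TMM factors (0.983 in mouse 1 and 1.017 in mouse 2) and the intercept-only biological coefficient of variation came from edgeR 4.0.16. Size factors came from DESeq2 1.42.0, both packages in R 4.3.3. Exact tests came from SciPy 1.17.1 and were tried on simulated Poisson counts. Those lack any spread between mice beyond counting error, so the behaviour of the exact tests under such spread was not tested. Sequences are from RefSeq (GRCm38.p6), which lists all 4 family genes. Of its 1058 microRNA symbols, 1018 matched the table.

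The family, the marker lists and the tests were chosen with earlier results of these data known. The genes named were the family, genes sharing the seed or its shifted form, genes within 10 kb, the 3 nearest to Mir301 in log2 ratio, and list examples. The labels name separate biological replicates under 1 donor code.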

Additional observations from a re-analysis of the deposited data

How the results depend on the processing

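No paired analysis was possible because the 2 mice form 1 group. Leaving out each mouse gave 1359 to 1503 CPM for Mir130a, 105.2 to 116.6 for Mir130b, 39.2 to 384 for Mir301 and 3.22 to 6.73 for Mir301b, a family share of 0.151% to 0.201%, and within the family 74.8% to 90.2% for Mir130a, 5.80% to 6.98% for Mir130b, 2.60% to 19.1% for Mir301 and 0.214% to 0.335% for Mir301b. The log2 ratio has no value with 1 mouse. Of 65 other values, 50 stayed the same and 15 moved. A level or share moved when it shifted by more than its SD, and a number of genes when it changed by more than 1.5-fold. Some values could not move under these rules. The shares within the family were fixed under the unstranded column, where the family counts equal the sense counts. The SD of Mir301 exceeded its mean, so no fall in its level could count as a move. A log2 ratio stayed the same when its call did. Only log2 ratios could reverse, and none did. The family genes detected numbered 4 at 1 CPM, with Mir301b added, and 2 at 100 CPM, without Mir301, against 3. The direction and call of Mir301 held under all 6 alternatives, at log2 ratios of 3.29 to 3.49. CPM over all reads placed once gave 1186 for Mir130a and 91.8 for Mir130b, and of all reads of the library 407, 31.6 and, for Mir301b, 1.40, with a family share of 0.0499%; Mir301 was then 58.2 against 211.5 CPM, a move smaller than its SD of 243.8. Over unstranded totals Mir130a was 1546 and Mir130b 119.8 CPM. At 100 CPM or more, 36 of 207 tested genes were called (9 higher in mouse 1, 27 in mouse 2). At 1.5-fold, 138 of 324 were called (57 higher in mouse 1, 81 in mouse 2). The main setting called 63 of 324 (17 higher in mouse 1, 46 in mouse 2). Removing the GC trend gave 67 calls, of which 29 were higher in mouse 1 and 38 in mouse 2; the cause was not tested.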
